A study of Homo sapiens with 18 samples.

Results

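Valproic acid was measured here as an addition to decitabine in U937, a human line with monocyte features that was established from a histiocytic lymphoma. The comparison takes 6 of the 18 arrays of the series, chosen by their labels, and sets 3 of cells that received both agents against 3 of cells that received decitabine alone. Both groups had 3 pulses of decitabine (5-aza-2'-deoxycytidine) of 24 h each, labelled with the number 50. The combination group also had valproic acid for 24 h alongside the third pulse, labelled with the number 1. The labels give neither number a unit. Values were log2 signals on Affymetrix Human Gene 2.0 ST arrays. All 16098 probe sets with 1 gene symbol, of 48226 in the table, were compared, and they stood for 14884 genes. The series has 6 groups of 3 arrays. Of the others, control cells and cells given valproic acid alone for 24 h served to measure the agent's change without decitabine. The labels do not say whether control cells received a vehicle. Cells given decitabine plus panobinostat (label number 8) are set beside a few results. All groups were the same line in serum-containing medium. Nothing in the labels says that replicates came from separate cultures, so the p-values measure the spread between these samples, which may be technical.

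Decitabine is a cytosine analogue that is built into DNA, traps DNA methyltransferases and leaves daughter strands with less methylation at CG pairs. Valproic acid is a short branched fatty acid used against seizures that also inhibits histone deacetylases, the enzymes that remove acetyl groups from histones and other proteins. Acetylated histones mark open chromatin, and DNA methylation and histone deacetylation are both known to keep genes silent, which is why the agents are combined in studies of myeloid leukaemia.

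Of 10 marker genes of the line's myeloid identity 6 were measured. The highest control level was 12.28 for MPO, the main granule peroxidase of myeloid precursors. CD4, CD68, LYZ and SPI1 stood at 9.74, 7.53, 7.325 and 6.97. ANPEP stood at 3.94, above only 40.7% of genes, and was not readable as present. EPCAM and ALB, the 2 measured of 6 genes not expected in the line, stood at 3.72 and 3.37. Log2 signals lay between 2.29 and 14.57, and every array median over all rows of the table between 3.81 and 3.87. Over the tested probe sets alone, array medians ran from 4.516 to 4.539 with decitabine and from 4.580 to 4.624 with both agents, without overlap. The number of arrays, not a read depth, limits the precision. Replicate 1 of decitabine plus valproic acid lay closest to the decitabine arrays. On the first principal component, which held 33.8% of the variance, it scored 12.42, its fellow replicates 24.82 and 31.23, and the decitabine arrays between -7.87 and -4.40.

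Adding valproic acid to decitabine raised 551 probe sets and lowered 403. Together these 954 were 5.93% of all tested, 3.42% higher and 2.5% lower, at a Benjamini-Hochberg adjusted p under 0.05 from limma, which is what "called" means below. A change of at least 2-fold was reached by 181 of the rises (1.12% of all probe sets) and 49 of the falls (0.304%). Across all probe sets the median log2 change was -0.0085. In 529 of the rises and 402 of the falls the 3 arrays with both agents lay entirely on 1 side of the 3 with decitabine alone, an arrangement found in 22.7% of all probe sets. Probe sets called higher and lower differed in their control level, though falls of dim probe sets can be understated on these arrays. In control cells, which belong to neither group, the probe sets that rose had a median level of 5.42 and 44.1% of them lay below 5. Those that fell had a median of 8.61 with 5.0% below 5, and all probe sets a median of 4.46 with 55.4% below 5. Protein-coding genes held 904 of the calls (7.12% of their probe sets, 4.1% higher and 3.02% lower). Long non-coding RNA genes were called in 2.32% of their probe sets (1.25% higher, 1.07% lower) and miRNA genes in 0.243% (0.162% higher, 0.0809% lower).

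The number of calls depended on single arrays. Without replicate 1 of the combination it was 1305, without replicate 2 it was 364 and without replicate 3 it was 371. Leaving out decitabine replicates 1, 2 and 3 gave 551, 600 and 454, and a fit of the 6 arrays alone gave 164. Whichever of the 6 arrays was left out, 253 probe sets stayed called, 177 higher and 76 lower. On every combination array the median over the tested probe sets was above that of the decitabine arrays. Centring each array on that median turned the balance to 424 higher and 757 lower. Then 35.9% of calls were rises in place of 57.8%.

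**Figure D1:**
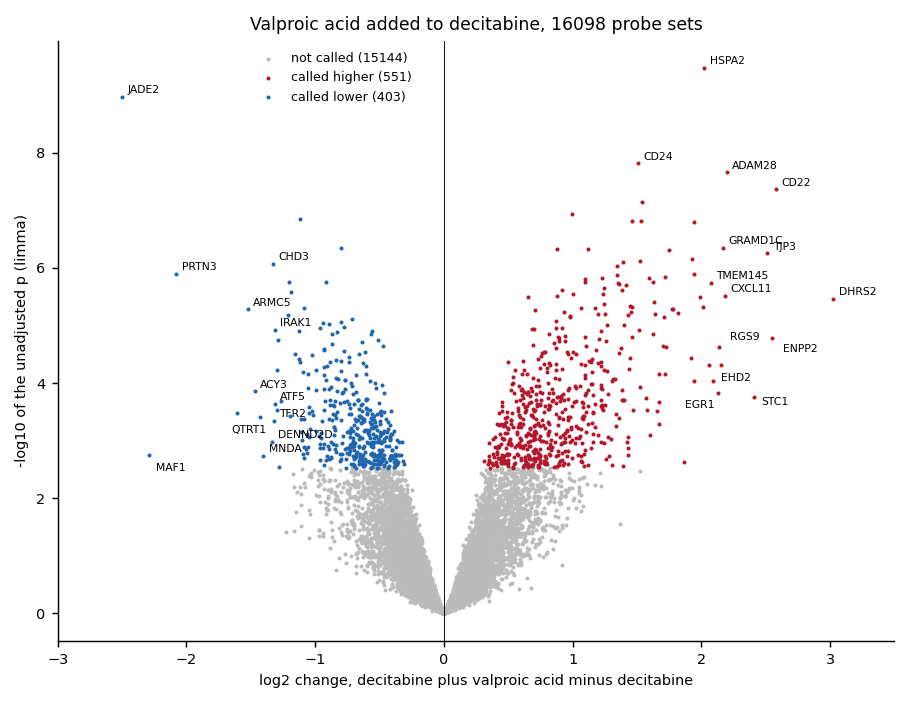
Log2 change of each of 16098 probe sets when valproic acid was added to decitabine (x axis) against -log10 of its unadjusted p from limma (y axis). Red points are the 551 called higher, blue points the 403 called lower and grey points those not called. Named points include the largest rises and falls. The rises reach 3.02 for DHRS2, and JADE2 and HSPA2 have the smallest p-values on either side.

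The gene that rose most was DHRS2, a short-chain dehydrogenase long known to be induced by deacetylase inhibitors. Its levels were 4.43, 3.86 and 4.06 with decitabine and 5.62, 7.58 and 8.22 with both agents. The largest rises and falls were named only among genes whose groups did not overlap, so that separation is no added support. Replicate 1 was the lowest of the combination arrays by a wide margin. The log2 change was 3.02 (SE 0.43, adjusted p = 0.00115), an 8.14-fold rise, and 3.78 without that replicate. Control cells read 3.61, 3.86 and 3.89, and valproic acid alone gave 5.77, 4.99 and 5.10. In the fit of the 6 arrays alone, the adjusted p for DHRS2 was 0.0599.

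CD22, an inhibitory lectin of the B cell surface, followed with 5.60, 5.94 and 5.21 under decitabine and 7.40, 8.42 and 8.67 with both agents. This was a log2 rise of 2.58 (SE 0.27, adjusted p = 0.000138). Valproic acid alone had taken it from 5.24, 5.56 and 5.62 to 8.95, 8.43 and 8.51. Combination replicates 2 and 3 were near that range, and replicate 1 lay below it. HSPA2, a testis-enriched member of the HSP70 chaperones, had the smallest p of all rises. It read 4.53, 4.30 and 4.38 with decitabine and 6.31, 6.25 and 6.72 with both, a log2 rise of 2.02 (SE 0.15, adjusted p = 5.4e-06). With valproic acid alone HSPA2 stayed at 4.06, 4.06 and 4.03 against 3.71, 3.71 and 4.13 in control.

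The promoters of these 3 genes and of the 2 falls described below are shown because decitabine leaves less methylation at CG pairs and the genes differ in how many they carry. Both groups compared received decitabine, and whether the counts relate to the changes was not tested. Each is the 250 bases before the start of the gene from the RefSeq table of build GRCh38.p14, on the + strand, with every CG in capitals. CG reads the same on both strands.
DHRS2: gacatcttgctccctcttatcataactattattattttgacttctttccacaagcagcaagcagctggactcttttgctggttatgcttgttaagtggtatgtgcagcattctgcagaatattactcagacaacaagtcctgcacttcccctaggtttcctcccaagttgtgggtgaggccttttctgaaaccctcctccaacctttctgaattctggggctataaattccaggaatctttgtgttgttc
CD22: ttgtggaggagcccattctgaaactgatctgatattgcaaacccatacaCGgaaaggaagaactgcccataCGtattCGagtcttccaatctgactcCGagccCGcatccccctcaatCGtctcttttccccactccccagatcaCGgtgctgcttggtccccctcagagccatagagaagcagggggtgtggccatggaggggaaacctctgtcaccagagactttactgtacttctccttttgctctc
HSPA2: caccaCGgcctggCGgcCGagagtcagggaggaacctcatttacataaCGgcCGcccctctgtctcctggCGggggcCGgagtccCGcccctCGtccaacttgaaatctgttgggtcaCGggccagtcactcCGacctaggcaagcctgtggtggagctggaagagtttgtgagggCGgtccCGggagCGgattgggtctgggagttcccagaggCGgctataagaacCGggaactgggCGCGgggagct
JADE2: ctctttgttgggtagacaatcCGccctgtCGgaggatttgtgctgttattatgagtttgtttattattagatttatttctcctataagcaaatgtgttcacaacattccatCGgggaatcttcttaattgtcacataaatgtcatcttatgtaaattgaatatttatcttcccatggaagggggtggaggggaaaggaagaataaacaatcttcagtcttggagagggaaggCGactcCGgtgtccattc
PRTN3: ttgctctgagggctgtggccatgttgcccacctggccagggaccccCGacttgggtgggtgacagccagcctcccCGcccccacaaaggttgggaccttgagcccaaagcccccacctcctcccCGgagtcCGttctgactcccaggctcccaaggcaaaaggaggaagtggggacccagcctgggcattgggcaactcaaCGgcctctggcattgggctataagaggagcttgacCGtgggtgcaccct
These windows lie at chr14:23629865-23630114 for DHRS2, chr19:35328937-35329186 for CD22, chr14:64540491-64540740 for HSPA2, chr5:134523759-134524008 for JADE2 and chr19:840749-840998 for PRTN3. DHRS2 had 0 CG pairs there, CD22 had 7, HSPA2 had 18, JADE2 had 5 and PRTN3 had 6. Of all 27305 promoters in that collection, 93.6% held at least 1, the median was 11, and 36.5% held 18 or more. The 10749 tested genes with an entry had a higher median of 18, which is the count in HSPA2, and the other 4 genes shown lie below it. The counts are a description of these windows; methylation was not measured on these arrays. Called and other genes were also compared for CG content, but that check is void and not reported, because only 72.2% of the genes tested had a promoter in the table.

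Of the other large rises, ENPP2 encodes autotaxin, the enzyme that makes lysophosphatidic acid. It went from 4.22, 3.89 and 3.56 to 5.28, 6.69 and 7.35 (log2 change 2.55, SE 0.42, adjusted p = 0.00268). TJP3, a scaffold of tight junctions, went from 3.87, 4.13 and 4.26 to 6.04, 6.40 and 7.35 (2.51, SE 0.31, adjusted p = 0.000523). ADAM28, a membrane metalloprotease of lymphocytes, rose from 4.38, 4.34 and 4.25 to 6.07, 6.71 and 6.77 (2.20, SE 0.21, adjusted p = 8.77e-05). Among these 3 genes ADAM28 had the tightest arrays. GRAMD1C, a carrier of cholesterol between membranes, rose by 2.17 on the log2 scale and RGS9, a regulator of G protein signalling, by 2.14. EHD2, an ATPase at the neck of caveolae, rose by 2.09 and TMEM145 by 2.08. EGR1, an immediate early transcription factor of monocyte differentiation, rose by 2.13 (adjusted p = 0.00945), and its adjusted p was 0.0513 without replicate 2 of the combination. In the fit of the 6 arrays alone ENPP2, RGS9, TMEM145 and EGR1 lost their calls (adjusted p = 0.0566, 0.0554, 0.0507 and 0.0592). TJP3, ADAM28, GRAMD1C and EHD2 kept theirs there (0.0335, 0.0224, 0.0416 and 0.0491).

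Some of the genes that rose on top of decitabine were not called with valproic acid alone. STC1, a secreted glycoprotein hormone, read 3.80, 3.73 and 3.96 with decitabine and 4.61, 6.44 and 7.66 with both. Its log2 change was 2.41 (SE 0.50, adjusted p = 0.0105). With 1 array left out it ran from 1.70 to 3.23, highest without combination replicate 1. In the fit of the 6 arrays alone the adjusted p of STC1 was 0.116. The change with valproic acid alone was -0.20 (adjusted p = 0.898). CXCL11, an interferon-inducible chemokine for T cells, went from 5.00, 4.31 and 3.90 to 6.00, 6.73 and 7.04 (2.19, SE 0.31, adjusted p = 0.00109), and its change with valproic acid alone was -0.10 (adjusted p = 0.922). DPPA3, a germ cell and early embryo factor that guards methylation in the zygote, went from 4.95, 4.06 and 4.005 to 6.54, 6.53 and 5.74 (1.93, SE 0.24, adjusted p = 0.000616). PEG10, a paternally expressed imprinted gene derived from a retrotransposon, went from 5.78, 6.01 and 5.42 to 6.63, 7.18 and 7.14 (1.25, SE 0.18, adjusted p = 0.00137). With valproic acid alone the changes of DPPA3 and PEG10 were 0.16 and -0.20 (adjusted p = 0.821 and 0.641). Tests of whether these changes differed from those without decitabine gave adjusted p = 0.261 for STC1, 0.0706 for CXCL11, 0.0749 for DPPA3 and 0.0543 for PEG10, none under the threshold.

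**Figure D2:**
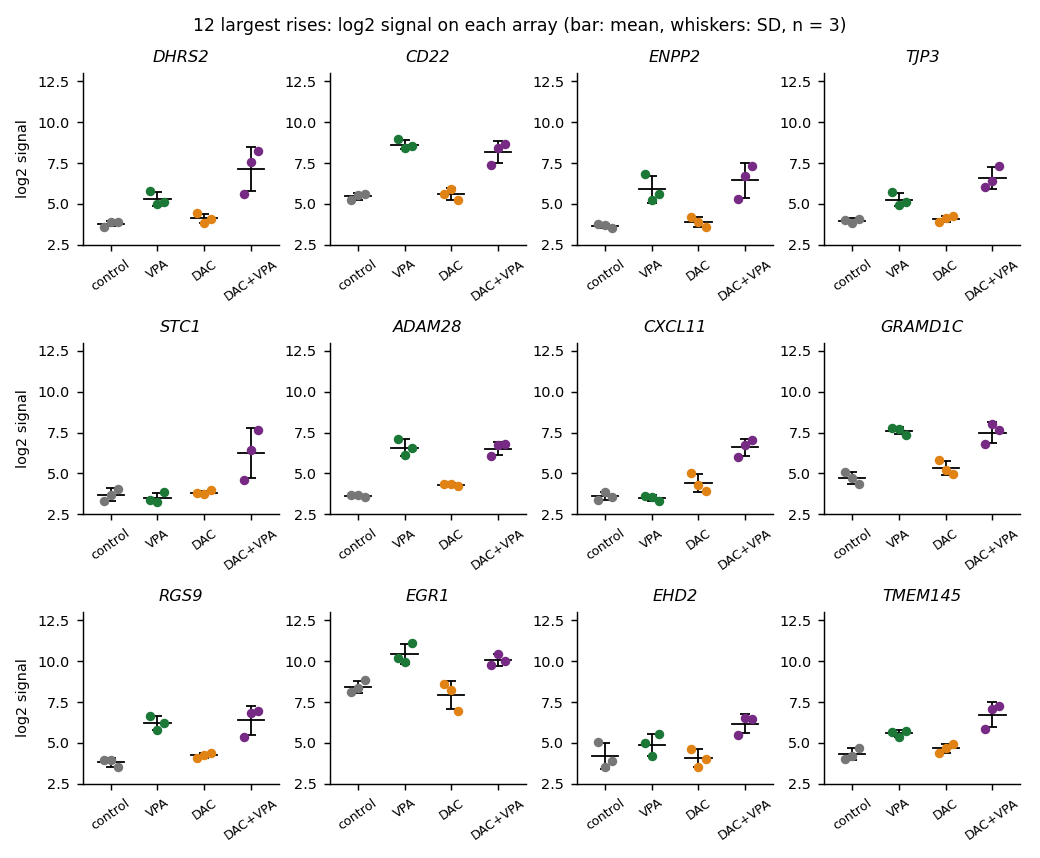
Log2 signal on each array (y axis) of the 12 protein-coding genes with the largest rises among those whose groups did not overlap, in control, valproic acid (VPA), decitabine (DAC) and both agents (DAC+VPA). Points are arrays in replicate order, bars the mean and whiskers the SD (n = 3). In STC1, DHRS2 and RGS9 replicate 1 of the combination sits nearest the decitabine arrays, and CD22, ADAM28 and GRAMD1C are also high with valproic acid alone.

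The deepest fall was that of JADE2, a scaffold of the HBO1 histone acetyltransferase complex. It read 7.43, 7.51 and 7.51 with decitabine and 5.24, 4.82 and 4.90 with both agents, and no array came near the other group. The log2 change was -2.50 (SE 0.20, adjusted p = 8.45e-06), a 5.65-fold fall. Valproic acid alone had lowered it from 7.96, 7.98 and 8.04 to 5.79, 6.54 and 6.42. PRTN3, the neutrophil granule protease proteinase 3, fell from 7.68, 7.34 and 7.83 to 6.08, 5.14 and 5.40 (-2.08, SE 0.28, adjusted p = 0.000841). In control it had been at 4.89, 4.26 and 4.59, so its level with both agents still lay above every control array.

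ACY3, an aminoacylase, had the same order of groups. It stood at 5.08, 5.42 and 5.79 in control, 8.34, 8.29 and 8.73 with decitabine, and 7.68, 7.07 and 6.20 with both (-1.47, SE 0.29, adjusted p = 0.00916). In the fit of the 6 arrays alone the adjusted p of ACY3 was 0.0877. CHD3, the ATPase of the NuRD corepressor that carries deacetylases, fell from 8.89, 9.09 and 9.06 to 8.12, 7.64 and 7.30 (-1.32, SE 0.17, adjusted p = 0.000644). IRAK1, the kinase below Toll-like and interleukin 1 receptors, fell from 8.78, 8.42 and 8.79 to 7.75, 7.40 and 6.89 (-1.32, SE 0.21, adjusted p = 0.00226). ARMC5, an adaptor of a ubiquitin ligase, fell by 1.52 on the log2 scale (adjusted p = 0.00143). JADE2, PRTN3, CHD3, IRAK1 and ARMC5 kept their calls whichever array was left out and under the other alternatives run, except that ARMC5 was too dim for the filter on the mean. In the 6 arrays alone the adjusted p of IRAK1 was just under the threshold.

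The remaining large falls rested on fewer arrays. MAF1, the repressor of RNA polymerase III, had a log2 change of -2.29 but an SE of 0.61 (adjusted p = 0.0376), with 6.47, 6.94 and 7.71 under decitabine and 5.44, 4.46 and 4.34 under both. It lost its call without any of 5 arrays (decitabine replicates 1, 2 and 3, combination replicates 2 and 3), with an adjusted p up to 0.143. MNDA, a myeloid nuclear antigen, spread from 7.08 to 4.84 across the 3 combination arrays against 7.59, 7.09 and 7.57 (-1.40, SE 0.38, adjusted p = 0.0378), and its change was -0.81 without combination replicate 3 and -1.93 without combination replicate 1. The same 5 omissions ended its call, and DENND2D (-1.33), a Rab activator, lost its call under them too, up to 0.123. TFR2 (-1.32), transferrin receptor 2, lost its call without decitabine replicate 1 or 3 or combination replicate 2 or 3 (up to 0.0807). QTRT1 (-1.43), which modifies tRNA, did so without decitabine replicate 1 or combination replicate 2 (up to 0.0815). ATF5 (-1.31), a stress transcription factor, did so without decitabine replicate 3 or combination replicate 3 (up to 0.0672).

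**Figure D3:**
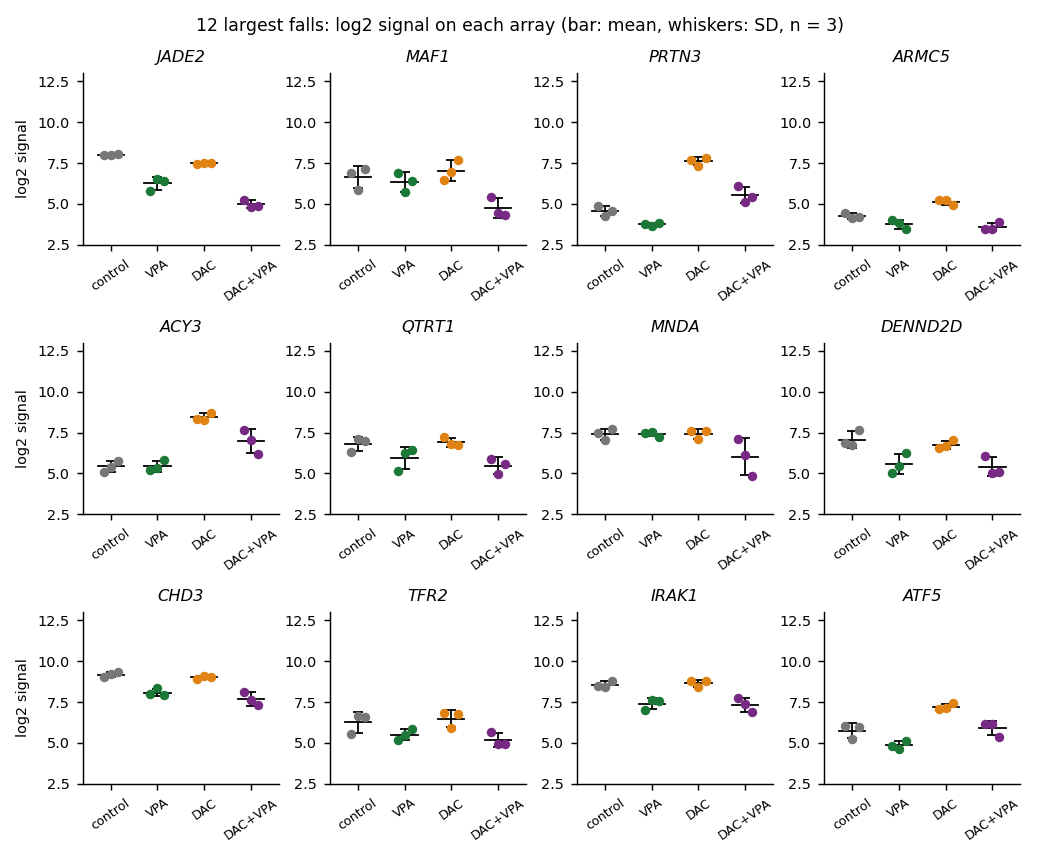
Log2 signal on each array (y axis) of the 12 protein-coding genes with the largest falls among those whose groups did not overlap, in control, valproic acid (VPA), decitabine (DAC) and both agents (DAC+VPA). Points are arrays in replicate order, bars the mean and whiskers the SD (n = 3). JADE2 has tight groups far apart, while MNDA spreads from 7.08 to 4.84 with both agents; PRTN3 and ACY3 are high with decitabine and lower, yet above control, with both.

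Histone deacetylase genes, and those of the acetyltransferases that oppose them, had 2 calls each. Of 11 histone deacetylase genes, 2 were called higher (18.18%), where in the whole set of genes 3.55% were called higher and 2.53% lower. The list's median log2 change was -0.01, as it was for all genes (-0.01). HDAC1, the class I enzyme of most corepressors, read 11.18, 11.11 and 11.10 with decitabine and 11.41, 11.65 and 11.48 with both (0.38, adjusted p = 0.0371). HDAC11, the class IV enzyme, rose by 0.66 (adjusted p = 0.0232). Neither call was kept when decitabine replicate 1, 2 or 3 or combination replicate 2 or 3 was left out. HDAC2 and HDAC3 changed by -0.35 (adjusted p = 0.381) and 0.26 (0.375). Among 10 acetyltransferases 2 fell, with a list median of -0.295. KAT2A, the GCN5 enzyme of SAGA, went from 8.57, 8.36 and 8.80 to 8.07, 7.72 and 7.64 (-0.77, adjusted p = 0.00875). KAT6B changed by -0.45 (adjusted p = 0.0246, up to 0.0968 without decitabine replicate 2).

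Of 8 DNA methylation enzymes 0 were called in the limma test, and 5 had an unadjusted p under 0.05, which 19.5% of all genes had. DNMT1, the maintenance methyltransferase that decitabine traps, read 11.07, 11.02 and 11.12 with decitabine and 10.66, 10.63 and 10.92 with both, so the arrays did not overlap, but its change of -0.34 had an adjusted p of 0.0764. Of 16 subunits of deacetylase corepressors 1 was called, the fall of CHD3, where 6.07% of all genes were called. Among 7 measured genes known to rise with deacetylase inhibitors, DHRS2 and CLU were called, with a list median of 0.68. CLU, the secreted chaperone clusterin, rose from 3.12, 3.39 and 3.34 to 4.09, 4.46 and 4.51 (1.07, adjusted p = 0.0157). It lost its call without decitabine replicate 1 or combination replicate 2 or 3, with an adjusted p up to 0.0724.

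Genes of cell growth made up the largest groups of falls. Over all genes 2.53% were called lower, and 7616 of 14884 had changes below 0. Of 25 genes of ribosome biogenesis, including MYC and some of its targets, 10 fell and 0 rose, with 24 changes below 0 and a median of -0.68. The mean level of the list was between 8.86 and 8.94 on the decitabine arrays and between 8.06 and 8.47 on the combination arrays, with no overlap. BYSL, which matures the small ribosomal subunit, fell from 8.35, 8.10 and 8.55 to 7.76, 7.44 and 7.01 (-0.93, SE 0.17, adjusted p = 0.00512). RRS1, BOP1 and MYBBP1A, other ribosome assembly or nucleolar factors, had changes of -0.95, -0.93 and -0.89. RRS1 lost its call without any array but combination replicate 1 (adjusted p up to 0.122) and MYBBP1A without any of the 6 (up to 0.163). BOP1 lost it without decitabine replicate 1, 2 or 3 or combination replicate 3, and its change was -0.60 (adjusted p = 0.218) without the last. MYC itself, the transcription factor that drives this programme, was not called. Against control it had changed by -1.01 with decitabine alone and by -1.03 with valproic acid alone (adjusted p = 0.0149 and 0.0093). It read 9.77, 9.80 and 9.55 with decitabine and 9.76, 8.997 and 8.60 with both (-0.59, SE 0.22, adjusted p = 0.136), and its change was -0.91 (adjusted p = 0.00423) without replicate 1 of the combination but -0.33 (adjusted p = 0.486) without replicate 3. The list's count was 4 to 12 with 1 array left out, lowest without decitabine replicate 3 or combination replicate 3, and 2 in the fit of the 6 arrays alone. With valproic acid alone against control the same list had 12 falls and 0 rises, with a median of -0.68.

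Of 5 other lists of growth genes, 3 had 4 to 6 falls and 0 rises, where 2.53% of all genes fell. Their counts depended on which arrays were present. The other two had fewer. Of 12 amino acid and one-carbon enzymes 2 fell and 1 rose (median -0.08): MTHFD1L of the mitochondrial folate pathway (-0.89), PSAT1 of serine synthesis (-0.40) and ASNS, asparagine synthetase (0.70). With 1 array omitted the number of falls in it was 0 or 1, and ASNS was called only without decitabine replicate 2 (adjusted p up to 0.173 without another). ASNS read 7.61, 8.18 and 7.59 in control, 6.84, 6.95 and 6.41 with decitabine, and 7.48, 7.33 and 7.49 with both, still below every control array. Of 18 cytosolic ribosomal proteins 1 fell, RPS14 (-0.84, adjusted p = 0.0297, up to 0.15 without combination replicate 3), with a median of -0.16. In the 23 genes of the mitochondrial ribosome and import machinery 5 fell and 0 rose (median -0.35). HSPD1, the HSP60 chaperonin of mitochondria, went from 9.69, 9.78 and 9.79 to 8.93, 8.37 and 8.31 (-1.21, SE 0.18, adjusted p = 0.00155), and TIMM13 and TIMM44, parts of the inner membrane import system, by -0.66 and -0.77. These 3 genes kept their calls whichever array was left out, and the list's count ran from 3 to 7, with the lowest counts without decitabine replicate 1 or combination replicate 2 or 3. Of 17 enzymes of purine and pyrimidine synthesis 6 fell and 0 rose (median -0.37). RRM2, the small subunit of ribonucleotide reductase, went from 9.63, 9.84 and 9.76 to 9.32, 9.04 and 9.05 (-0.61, adjusted p = 0.011). PFAS, TYMS and CTPS1, which make purines, thymidylate and CTP, had changes of -0.85, -0.67 and -0.65. These 3 calls were lost without any array but combination replicate 1 (adjusted p up to 0.199), and the change of TYMS was -0.44 without combination replicate 3. Without combination replicate 2 or 3 the list's count was 0, and RRM2 then had an adjusted p of up to 0.0555. Of 21 translation factors and tRNA synthetases 4 fell (median -0.18), the cap-binding factor EIF4E among them with -0.59 (adjusted p = 0.0225, up to 0.116 without combination replicate 3), and the count was 0 without decitabine replicate 1 or combination replicate 2.

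All 16 measured DNA replication genes had changes below 0 (median -0.35), as did 7616 of all 14884 genes. Of the 16, 3 were called lower, where 2.53% of all genes were. MCM7 (-0.64), MCM5 (-0.68) and MCM4 (-0.49) are subunits of the replicative helicase. MCM7 read 10.58, 10.79 and 10.68 with decitabine and 10.40, 10.02 and 9.69 with both, so that replicate 3 was lowest. No member was called without combination replicate 2 or 3, where the highest adjusted p of MCM5 was 0.17. CDC25A, a phosphatase for entry into S phase, went from 9.16, 9.43 and 9.38 to 8.81, 8.73 and 8.63 (-0.60, adjusted p = 0.00614) and CDK4, a cyclin-dependent kinase of G1 phase, changed by -0.50 (adjusted p = 0.0116, 0.0599 without combination replicate 3). Of 26 genes of G2 and mitosis 0 were called by limma and 2 had an unadjusted p under 0.05 (19.5% of all genes), with a median of -0.05. The list means lay between 10.34 and 10.40 with decitabine and between 10.32 and 10.35 with both. In a bulk measurement fewer cells of a kind and less RNA per cell cannot be told apart.

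**Figure D4:**
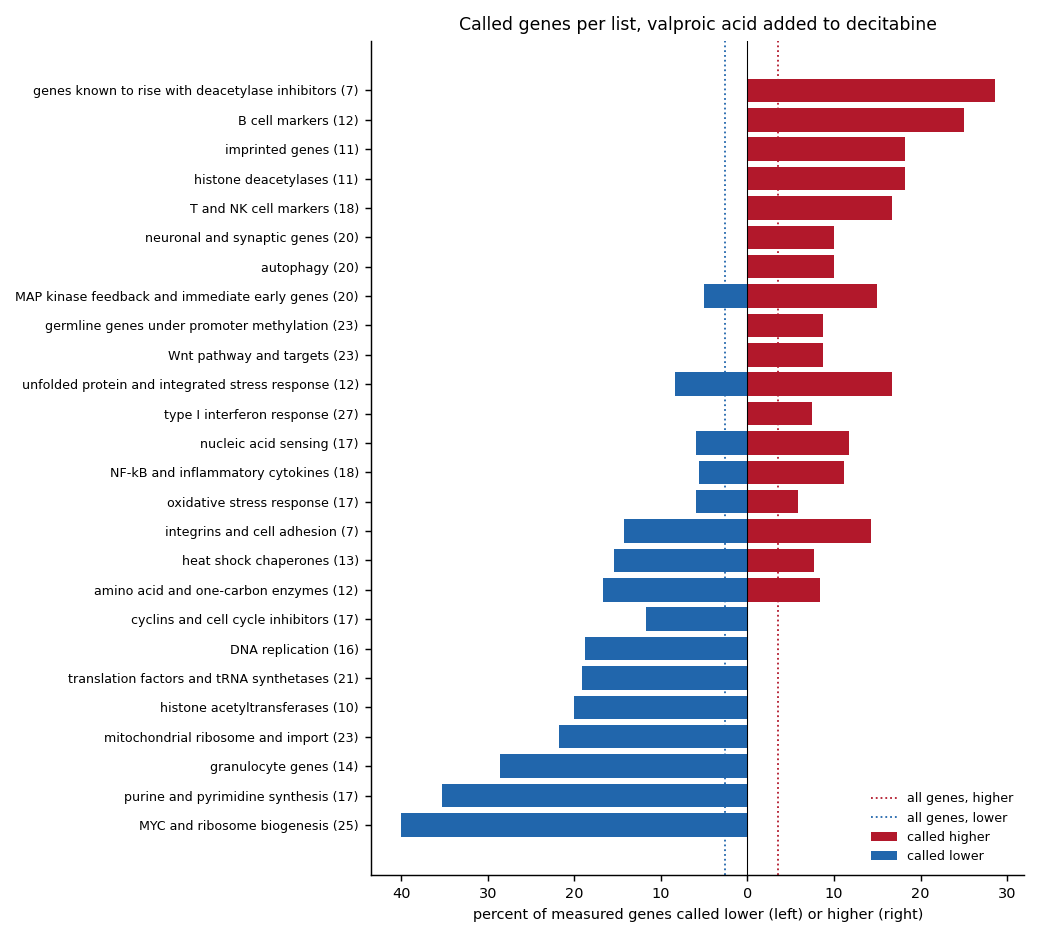
Percent of measured genes called lower (left, blue) or higher (right, red) in each gene list with at least 5 measured genes and 2 calls, with the number measured in brackets. Dotted lines mark the same shares over all 14884 genes, 3.55% higher and 2.53% lower. Ribosome biogenesis (10 of 25 lower) and purine and pyrimidine synthesis (6 of 17 lower) extend farthest to the left, and none of their genes was called higher.

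Of 14 granulocyte genes 4 were called lower (28.57%, where 2.53% of all genes were) and 0 higher, and the list's median was -0.10. The 4 encode proteins of azurophil granules. Beside PRTN3, its neighbour AZU1 (azurocidin) went from 6.90, 7.16 and 7.50 to 6.73, 6.08 and 6.09 (-0.89, adjusted p = 0.012). CTSG (cathepsin G) went from 9.81, 9.21 and 9.49 to 8.69, 8.60 and 8.43 (-0.93, adjusted p = 0.0134). MPO went from 12.41, 12.17 and 12.36 to 12.07, 11.68 and 11.43 (-0.58, adjusted p = 0.0213). In all 4 the groups did not overlap, as in 402 of all 403 probe sets called lower, so this is no added support. Of all probe sets, 11.8% had the combination arrays entirely below. AZU1 also lost its call without decitabine replicate 3 or combination replicate 2, CTSG without decitabine replicate 1, and MPO without decitabine replicate 1 or 3 or combination replicate 2. PRTN3 alone was still called without combination replicate 3, when the adjusted p was 0.0657 for AZU1, 0.0652 for CTSG and 0.113 for MPO. Granule genes of later neutrophils (LTF, CAMP, MMP8 and LCN2) had changes between -0.08 and 0.21. The mean of all 14 genes was 5.62 to 5.75 with decitabine, below every decitabine array of the 4 that fell. Falls of dim probe sets can be understated, so these values do not compare the 2 kinds of granule gene.

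Monocyte and macrophage markers gave 1 call in 20 (5.0%, median 0.08), near the 6.07% called of all genes. TREM1, an activating receptor of monocytes and neutrophils, rose from 4.62, 4.49 and 4.13 to 5.32, 6.23 and 5.88 (1.40, SE 0.18, adjusted p = 0.000644). LYZ (lysozyme), CSF1R (the M-CSF receptor), CD86 (a costimulatory ligand) and TYROBP (the adaptor of TREM receptors) already stood above every control array with decitabine alone. Their changes on adding valproic acid were 0.18, -0.25, 0.18 and -0.23, with adjusted p of 0.704, 0.737, 0.689 and 0.519. CD86, for one, read 7.001, 7.14 and 7.43 before and 7.20, 7.57 and 7.34 after, with overlap, against 5.01, 5.50 and 4.74 in control. With valproic acid alone against control, LYZ, CSF1R and CD86 rose by 0.78, 1.46 and 1.31 (limma adjusted p = 0.0195, 0.00761 and 0.000436). In that comparison 5 of the 20 markers were called higher and 0 lower, where 4.45% of all probe sets were called higher. For these 3 genes the differences with and without decitabine were not called (adjusted p = 0.625, 0.19 and 0.127). Of 16 stem and progenitor genes 0 were called by limma and 4 had an unadjusted p under 0.05, near the 19.5% of all genes. CD34, the progenitor sialomucin, read 9.22, 8.99 and 8.92 with decitabine and 9.44, 9.67 and 8.97 with both (0.31, adjusted p = 0.64). SPI1, the PU.1 factor of myeloid fate, read 7.28, 7.03 and 7.08 before and 7.05, 6.37 and 5.78 after (-0.73, adjusted p = 0.0733). Its change was -1.06 (adjusted p = 0.00273) without replicate 1 of the combination and -0.42 (adjusted p = 0.306) without replicate 3.

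Some genes of other lineages rose, where 3.55% of all genes were called higher. Of 12 B cell genes 3 rose (25.0%, median -0.01): CD22, CD24 and PAX5. CD24, a small anchored mucin of B cells and other types, went from 5.93, 5.76 and 5.92 to 7.22, 7.32 and 7.58 (1.51, SE 0.14, adjusted p = 8.15e-05). PAX5, the B cell commitment factor, went from 4.58, 4.17 and 4.01 to 4.97, 4.76 and 5.49 (0.82, adjusted p = 0.0305), and lost its call without decitabine replicate 2 or 3 or combination replicate 3 (up to 0.153). In control PAX5 read 4.92, 5.07 and 4.90, above every decitabine array and overlapping the arrays with both agents. The mean of the list was 4.30 to 4.39 with decitabine and 4.67 to 4.78 with both. VPREB1, CR2, BLNK and POU2AF1 had changes between -0.19 and 0.01, at mean levels from 3.46 to 3.94 with decitabine. Of 18 T and NK cell genes 3 rose (16.67%), and 6 had changes below 0 (median 0.26). NKG7, a protein of cytotoxic granules, had the lowest at -1.03 (adjusted p = 0.0581). PRF1, the pore former perforin, went from 6.18, 6.45 and 6.08 to 7.20, 8.20 and 8.63 (1.77, SE 0.26, adjusted p = 0.00143), from a control level of 3.81, 3.48 and 3.53. CD2, an adhesion receptor, rose by 1.10 (adjusted p = 0.00945) and CD5 by 0.83 (0.0265, up to 0.111 without decitabine replicate 2). The mean of that list was 4.99 to 5.11 with decitabine and 5.33 to 5.38 with both. Higher calls were also made for 1 of 7 erythroid, 2 of 20 neuronal and 1 of 21 epithelial genes. The neuronal count was 0 without combination replicate 2 or 3. Lists of megakaryocyte (8 genes) and stromal genes (11) had 0 calls. All arrays were of the same line, and what lay behind the rises in these lists was not tested.

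Signalling genes were called on both sides, where 3.55% of all genes were called higher and 2.53% lower. Of 20 genes of MAP kinase feedback and immediate early response 3 rose and 1 fell (median 0.21). DUSP6, a phosphatase that switches off ERK, went from 9.63, 9.67 and 9.48 to 10.23, 10.23 and 10.28 (0.66, SE 0.09, adjusted p = 0.00109), with closely grouped arrays. EGR1 and DUSP5 (0.96) were the other rises, while FOSL2, a FOS relative, changed by -0.55 (adjusted p = 0.0201, up to 0.09 without combination replicate 2). FOSL2 lost its call without decitabine replicate 1 or 2 or combination replicate 2 or 3, and DUSP5 without decitabine replicate 1 or 3 or combination replicate 2 or 3 (up to 0.0995). The count of rises was 1 without combination replicate 2. In NF-kB signalling 2 of 18 rose and 1 fell. TRAF1, an adaptor of TNF receptors, went from 4.09, 4.58 and 4.20 to 5.54, 6.01 and 6.55 (1.75, SE 0.21, adjusted p = 0.000482). PTGS2 (cyclooxygenase 2) rose by 1.16 (adjusted p = 0.0228), although its decitabine array 1 at 6.40 overlapped the combination arrays at 6.30, 7.21 and 6.60. It lost its call without decitabine replicate 2 or 3 or combination replicate 2 or 3 (adjusted p up to 0.11). NFKB1, the p105 precursor, fell by 0.70 (adjusted p = 0.0184, and up to 0.0832 without decitabine replicate 3 or combination replicate 3).

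The type I interferon list had 2 rises in 27 genes (median 0.29), where 3.55% of all genes rose. SLFN5, a member of the Schlafen family, went from 6.90, 6.41 and 6.53 to 7.74, 8.57 and 8.55 (1.67, SE 0.31, adjusted p = 0.00614). IFI44 changed by 0.70 (adjusted p = 0.0236, up to 0.0852 without decitabine replicate 1). Among genes of nucleic acid sensing 2 of 17 rose and 1 fell: SAMHD1, a dNTP hydrolase (0.94), RIGI, the RNA sensor (0.69), and IRF1, an interferon transcription factor (-0.84). The call of IRF1 was lost without decitabine replicate 1 or 3 or combination replicate 2 or 3 (adjusted p up to 0.159). The interferon count was 1 when any array but combination replicate 2 was left out, and the sensing count 0 without decitabine replicate 3 or combination replicate 3. Innate immune receptors had 1 call in 13, TLR6 (1.47, adjusted p = 0.0134, and 0.0686 without combination replicate 2).

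Of 23 germline genes kept silent by methylation, 18 had changes above 0 (median 0.14) and 2 were called, DPPA3 and MAEL. Of all 14884 genes, 7268 had changes above 0 and 3.55% were called higher. MAEL, which guards germ cells against transposons, read 7.74, 7.12 and 7.53 with decitabine and 8.56, 8.29 and 8.35 with both (0.94, SE 0.25, adjusted p = 0.0346, up to 0.13 without decitabine replicate 2). In control MAEL was at 3.94, 4.02 and 3.81, and valproic acid alone left it at 3.72, 3.73 and 3.47. PEG10 and GNAS, which encodes a stimulatory G protein subunit, were the 2 of 11 imprinted genes called. GNAS (0.99, adjusted p = 0.0393) had overlapping arrays, and lost its call without decitabine replicate 2 or 3 or combination replicate 1 or 2 (up to 0.17), over all rows of the table and under repeated quantile normalization. In autophagy 2 of 20 genes rose. GABARAPL1, which marks autophagosomes, went from 4.13, 4.33 and 4.53 to 5.23, 5.47 and 5.68 (1.13, SE 0.20, adjusted p = 0.00456), and OPTN, a receptor for cargo, by 1.22 (adjusted p = 0.00867). Both kept their calls whichever array was left out. Lists of the BCL2 family and death receptors (18 genes), metallothioneins (11) and cancer-testis antigens (6) had 0 calls by limma, with 3, 3 and 0 genes at an unadjusted p under 0.05 (19.5% of all genes). TP53INP1, a p53 target that promotes cell death, rose by 1.60 (adjusted p = 0.0237), and lost its call without decitabine replicate 2 or 3 or combination replicate 3 (up to 0.123).

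Whether valproic acid changed the same genes without decitabine was read from its arrays against control, which share no array with the comparison above. Valproic acid alone called 1142 probe sets (7.09%), 716 higher (4.45%) and 426 lower (2.65%). Called higher in both comparisons were 268, or 48.6% of the rises with decitabine and 37.4% of those without. Called lower in both were 159, or 39.5% and 37.3%. Of the 551 rises with decitabine 90.9% also had a positive change without it, and of the 403 falls 94.0% a negative one. The median change of the rises was 0.82 with decitabine and 0.57 without, and of the falls -0.66 and -0.44. Read from the other side, probe sets called higher by valproic acid alone had a median of 0.78 there and 0.46 with decitabine, and those called lower -0.67 and -0.43. In each direction the comparison that chose the probe sets had the larger median. Across all 16098 probe sets the changes correlated at r = 0.58 (Spearman rho = 0.456). This describes probe sets on the same 12 arrays, and genes are not independent replicates.

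**Figure D5:**
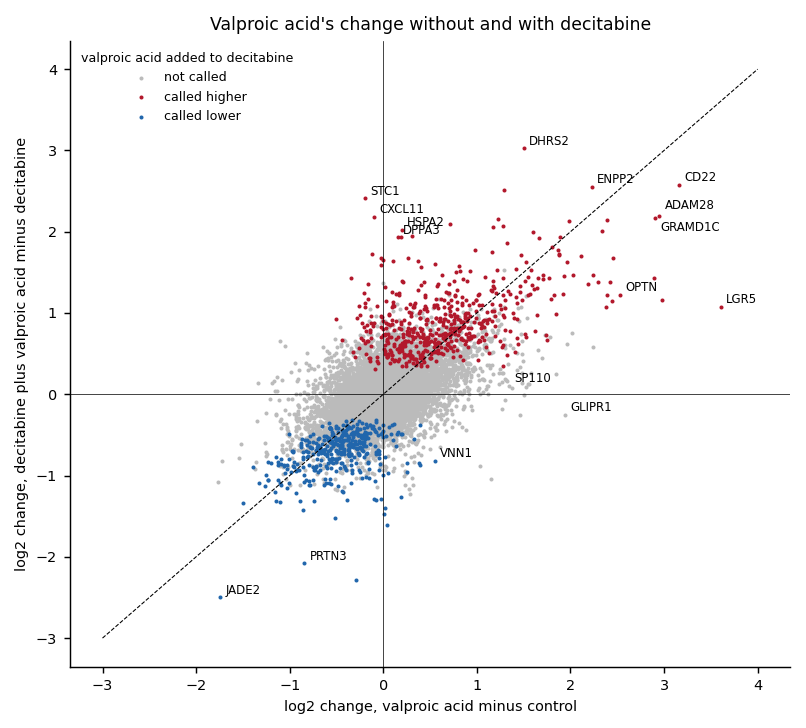
Log2 change of each of 16098 probe sets with valproic acid against control (x axis) and with valproic acid added to decitabine (y axis). Red and blue points were called higher or lower on adding it to decitabine, and the dashed line marks equal changes. CD22 and ADAM28 lie below the line at the upper right, LGR5 and GLIPR1 far below it, and HSPA2, CXCL11 and STC1 high above it near an x value of 0.

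The difference of the changes with and without decitabine was itself tested, and 8 probe sets (0.0497%) were called, 1 above 0 (0.00621%) and 7 below 0 (0.0435%). An unadjusted p under 0.05 was reached by 1217. Of the 8, HSPA2 had the larger rise with decitabine, with a difference of 1.82 (SE 0.21, adjusted p = 0.00302). For the other 7 the change with decitabine was the lower. LGR5, an R-spondin receptor known from stem cells of the gut, read 3.71, 3.82 and 4.76 in control, 7.59, 7.50 and 8.02 with valproic acid, 5.87, 6.57 and 6.42 with decitabine and 7.38, 7.22 and 7.48 with both. Its level with both thus did not exceed that with valproic acid alone, and the difference of changes was -2.53 (SE 0.34, adjusted p = 0.00898). GLIPR1, a secreted protein related to plant defence proteins, read 7.74, 7.25 and 7.16 in control, 9.81, 8.77 and 9.39 with valproic acid, 9.54, 9.14 and 9.21 with decitabine and 8.94, 8.83 and 9.36 with both (difference -2.19, adjusted p = 0.0124). VNN1, a pantetheinase, rose by 0.55 without decitabine and fell by 0.82 with it (difference -1.37, adjusted p = 0.0321). TPM4, a cytoskeletal tropomyosin, rose by 1.28 without decitabine and by 0.35 with it (adjusted p = 0.044, up to 0.153 without combination replicate 3), a difference of -0.93 (adjusted p = 0.0152). IKZF1, the Ikaros factor, was the other gene called in opposite directions, at 0.39 without and -0.38 with decitabine, but its difference had an adjusted p of 0.0773. HSPA2, LGR5 and ANXA2P2 kept the call of the difference with any 1 of the 12 arrays left out, and GLIPR1 lost it without combination replicate 2 (adjusted p = 0.061). Without that array 3 probe sets were called, and 26 without combination replicate 1. In the 12 arrays alone 3 were called. Of the 8, only HSPA2 and TPM4 were among them (adjusted p = 0.029 and 0.0487), and LGR5 and ANXA2P2 had adjusted p of 0.0617 and 0.0606.

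Panobinostat, a deacetylase inhibitor of another chemical class, was added to the same decitabine arrays, so the comparisons share them, and the label numbers give no matched dose. DHRS2 rose by 4.04 on adding panobinostat and 3.02 on adding valproic acid, CD22 by 3.08 and 2.58, and HSPA2 by 1.94 and 2.02. JADE2 changed by -2.50 with either inhibitor, PRTN3 by -3.19 with panobinostat and -2.08 with valproic acid, and CHD3 by -1.68 and -1.32. STC1 rose by 2.41 with each. MAEL changed by 0.42 (adjusted p = 0.324) with panobinostat and 0.94 with valproic acid, and PAX5 by 0.17 (adjusted p = 0.695) and 0.82. These differences between inhibitors were not tested.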

How the data were processed

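RNA of U937 cells was hybridised to 18 Affymetrix arrays (Human Gene 2.0 ST), 3 per group. The deposited log2 values were made by the authors with RMA (background correction, quantile normalization and probe set summary), per the submitters' processing notes; its version is not given in the sources used here. RNA was extracted with TRIZOL and RNeasy MinElute columns, per the labels' protocols. Array signals are compressed near background, so changes of dim probe sets can be understated.

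Probe sets were named from the platform annotation, all 16098 with 1 symbol being matched to the RefSeq gene table by gene identifier; 32128 had none and 0 had several. A linear model with 1 mean per group was fitted with limma 3.58.1 in R 4.3.3 to all 18 arrays, which share 1 spread per probe set with 12 residual degrees of freedom, moderated by empirical Bayes. Tests were two-sided and p-values adjusted by Benjamini-Hochberg over the 16098 probe sets; an adjusted p under 0.05 is a call. No probe set was removed for a low level. Gene lists used the probe set with the highest mean per gene. Of 51 lists written from general knowledge, 50 had a measured member. The code was tested on simulated data.

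Named genes are the 12 largest rises and 12 largest falls among called protein-coding genes with separated arrays, up to 4 called members of each list, 18 chosen drug target and myeloid genes, and up to 5 called differences in each direction. Members, lists and rules were chosen with earlier results of these data known. Alternatives were a fit of the compared groups alone, a replicate block, each array left out, a mean level of at least 5, 1 probe set per gene, all rows of the table, an intensity trend with robust moderation, median centring and a repeated quantile normalization. The replicate numbers were checked as pairs and were not taken as such. Promoter and miRNA sequences are RefSeq's, build GRCh38.p14.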

Additional observations from a re-analysis of the deposited data

Results flagged for a closer look

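The change that valproic acid made differed with and without decitabine, by a test of the difference itself in limma, for 8 probe sets at an adjusted p under 0.05. The difference was 1.82 for HSPA2. It was -2.53 for LGR5, -2.19 for GLIPR1, -1.37 for VNN1, -1.23 for SP110, -1.22 for ANXA2P2, -0.93 for TPM4 and -0.81 for LPXN. SP110, a nuclear body protein induced by interferon, rose by 1.34 without decitabine and changed by 0.11 with it. ANXA2P2, a processed copy of the annexin A2 gene that may cross-hybridise with it, rose by 1.49 without and changed by 0.27 with decitabine. LPXN (leupaxin), an adhesion adaptor, rose by 0.86 without and changed by 0.05 with it. With both agents LPXN and TPM4 stood at 9.59 ± 0.05 and 10.33 ± 0.06 (SD, n = 3), against 9.54 ± 0.07 and 9.98 ± 0.01 with decitabine. LPXN and VNN1 each lost the call of the difference when any of 10 of the 12 arrays was left out (adjusted p up to 0.0907 and 0.0912), SP110 under 6 omissions (up to 0.0822) and TPM4 without combination replicate 2 or valproic acid replicate 3 (up to 0.061).

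Probe sets without a gene symbol also changed when valproic acid was added to decitabine. With the adjustment made over all rows of the table, 546 of them were called higher and 297 lower, or 2.62% of 32128, with log2 changes from -1.89 to 3.48. They are not described further, as the annotation used gives them no gene.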

How the results depend on the processing

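The main counts were 954 calls, 551 higher and 403 lower, with 181 rises and 49 falls at 2-fold or more. In the fit of the 6 arrays alone they were 164, 107, 57, 69 and 21, and 160 of these were among the main calls. With 1 array left out they ran from 364 to 1305, 236 to 763, 123 to 542, 120 to 298 and 21 to 122, highest without combination replicate 1. With each array centred on its median 757 were lower and 90 lower at 2-fold or more. The other settings kept these counts within 1.5 times. No call turned to the opposite direction under any alternative. The number of called differences, 8 in the main fit, was 3 in the 12 arrays alone, where only HSPA2 and TPM4 of the 8 stayed called. It ran from 3 to 26 with 1 array left out, lowest without combination replicate 2 and highest without combination replicate 1. The replicate block gave 922 calls; deviations of same-numbered decitabine and combination arrays correlated at -0.013, 0.021 and 0.095, so the numbers were not taken as pairs. Of 102 called genes that the naming rule gave, 39 kept the call with any 1 array left out, 26 in the 6 arrays alone and 23 under every alternative that gave them a value; 16 were too dim for the filter on the mean. Of genes not called, CSF1R ranged from -0.515 to 0.016 with 1 array left out (positive without combination replicate 3) and SP110 from -0.009 (without decitabine replicate 2) to 0.165. The cause of these shifts was not tested.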

Other observations

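Non-coding genes held few of the calls. Of 1595 probe sets of long non-coding RNA genes 37 were called (2.32%), 20 higher and 17 lower. LINC00624 read 3.86, 3.38 and 3.51 with decitabine and 4.74, 5.61 and 6.87 with both agents (log2 change 2.15, adjusted p = 0.00483). LINC00974 rose from 4.33, 4.95 and 4.12 to 6.21, 6.51 and 6.02 (1.78, adjusted p = 0.00143). DANCR, which hosts small nucleolar RNAs, fell from 7.08, 6.86 and 7.30 to 6.30, 5.97 and 5.50 (-1.16, adjusted p = 0.00387). In LINC00891 the decitabine arrays at 6.78, 6.88 and 6.70 stood far above control at 4.25, 3.77 and 4.13, and the combination arrays at 7.92, 8.23 and 7.87 were higher again (1.22, adjusted p = 0.00466). These 4 were chosen after their values were seen.

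Of 1236 probe sets of miRNA genes 3 were called (0.243%), and their mature sequences are shown from the RefSeq table with the seed, bases 2 to 8, in capitals. The 3 seeds differ.
hsa-miR-4525: gGGGGGAUgugcaugcugguu
hsa-miR-933: uGUGCGCAgggagaccucuccc
hsa-miR-4521: gCUAAGGAaguccugugcucag
They lie, in build GRCh38.p14, at chr17:82668281-82668301 on the minus strand, chr2:175167642-175167663 on the minus strand and chr17:8186948-8186969 on the plus strand. MIR4525 rose from 7.39, 7.67 and 7.76 to 8.56, 9.07 and 8.72 (1.18, adjusted p = 0.00143) and MIR933 from 5.62, 5.41 and 5.07 to 6.23, 6.63 and 5.63 (0.79, adjusted p = 0.0395). MIR4521 fell from 8.56, 8.63 and 8.55 to 7.69, 7.42 and 7.64 (-0.995, adjusted p = 0.00553). In MIR933 the lowest combination array all but touched the highest decitabine array. These probe sets may read precursors or overlapping transcripts, and mature miRNA was not measured.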
